A study of Homo sapiens with 12 samples.

Results

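The genes described here are 10 members of the extracellular matrix proteinase system: the matrix metalloproteinases MMP1, MMP2, MMP3, MMP9, MMP13 and MMP14, the related secreted proteinase ADAMTS1, and the tissue inhibitors TIMP1, TIMP2 and TIMP3. They were taken by gene symbol, and all 10 had a value among the 19907 genes measured and were among the 15957 genes tested. RNA was sequenced from MDA-MB-231, a human triple-negative breast cancer cell line. The cells carried the glucocorticoid receptor either as wild type (WT-GR) or with a serine-to-alanine substitution (S134A-GR), and were sampled after 18 h in serum-poor medium (IMEM with 1% DCC) and then 6 h of vehicle or of 1 µM dexamethasone (Dex), a synthetic glucocorticoid. Each of the 4 combinations of receptor and treatment had 3 libraries, 12 in all. The sources used here do not state how the receptors were introduced, whether a line is 1 clone or whether the line's own receptor remains. A gene-level count cannot show a single substituted residue, so the receptor genotype was not checked. Nothing in the labels says that the libraries of a group come from separate cultures, so each p-value covers the spread among these libraries, which may be technical.

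Values are normalized read counts, that is, reads divided by a factor for the depth of the library. Recovered depth ran from 56.4 to 100.6 M (mega) reads per library, and the shallowest library of each treatment in WT-GR cells was its replicate 1. Genes seen with a single read numbered 193 and 210 in WT-GR Dex replicates 2 and 3 and from 352 to 409 elsewhere. Some calls of members changed when these libraries were left out, and examples, not all cases, are given below. All 7 of the mesenchymal markers of this line were present, led by VIM (366469 to 431198 over the 12 libraries). ESR1, the oestrogen receptor gene, was between 0 and 5.66 and CDH1, the E-cadherin gene, between 0 and 17.1. The other measured genes of the same luminal or HER2 list had much higher values, which are not adjusted for gene length. These were the keratin genes KRT8 (61689 to 88316) and KRT18 (27987 to 41736), ERBB2 (8864 to 12005) and GATA3 (786 to 1574). PGR, also listed, had no value. Of 6 fibroblast markers, LUM (0 to 4.23), DCN (0 to 14), COL3A1 (0 to 19.96) and COL1A2 (4.23 to 23.9) were low. COL1A1 (814 to 2369.7) and PDGFRB (1625 to 2871) had higher values, again not adjusted for length. In bulk RNA, a smaller share of expressing cells and less RNA per cell cannot be told apart.

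Matrix metalloproteinases are zinc enzymes made as inactive proenzymes and activated when their propeptide is cut. MMP1 and MMP13 are collagenases, MMP3 is a stromelysin that also activates other proenzymes, MMP2 and MMP9 are gelatinases, and MMP14 is a membrane-anchored collagenase that activates proMMP2 in a complex with TIMP2. TIMPs bind the active sites of these enzymes, and TIMP3, which stays bound to the matrix, also inhibits ADAM and ADAMTS proteinases. Glucocorticoids are known to repress collagenase transcription through interference of their receptor with AP-1, the JUN and FOS family factors that act at the promoters of several of these genes.

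The members lie on 8 chromosomes (GRCh38, GENCODE v29). MMP1 (chr11:102789920-102798160), MMP3 (chr11:102835801-102843803) and MMP13 (chr11:102942995-102955734) are neighbours on the minus strand of 1 cluster. MMP2 is at chr16:55389700-55506691, MMP9 at chr20:46008908-46016561, MMP14 at chr14:22836557-22849027 and ADAMTS1 at chr21:26835747-26845409. TIMP1 (chrX:47582313-47586789) and TIMP3 (chr22:32801701-32863043) each lie on the opposite strand inside a synapsin gene, SYN1 and SYN3, without a shared exon base, and SYN1 and SYN3 had group means of at most 18.5 and 2.49. TIMP2 is at chr17:78852977-78925387. In this annotation 430 of the exon bases of MMP9 (18.4%) are shared with the antisense gene SLC12A5-AS1, 367 of those of TIMP2 (9.01%) with AC022966.1 and 150 of those of MMP1 (7.61%) with the pseudogene WTAPP1, which was listed at 0. The sources used here do not state whether counting used the strand. Over the shared bases, reads of MMP9 and TIMP2 therefore cannot be told apart from those of their antisense genes.

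RefSeq's promoter table (GRCh38.p14) held 3 of the 10 members, MMP14, TIMP1 and TIMP3. Their 250 bases before the RefSeq transcription start are shown because MMP14 and TIMP3 fell with Dex in both genotypes and TIMP1 did not. All 3 are on the plus strand, at chr14:22836335-22836584 for MMP14, chrX:47582186-47582435 for TIMP1 and chr22:32801455-32801704 for TIMP3, and the outermost GENCODE start of each gene falls inside the stretch. Capitals mark the GC box GGGCGG, read on either strand, and, in TIMP1, the AP-1-like sequence TGAGTAA.
MMP14: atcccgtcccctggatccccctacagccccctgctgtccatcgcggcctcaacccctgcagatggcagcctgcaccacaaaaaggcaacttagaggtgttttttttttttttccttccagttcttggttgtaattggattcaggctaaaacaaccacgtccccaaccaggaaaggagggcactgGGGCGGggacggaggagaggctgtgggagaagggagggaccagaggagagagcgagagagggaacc
TIMP1: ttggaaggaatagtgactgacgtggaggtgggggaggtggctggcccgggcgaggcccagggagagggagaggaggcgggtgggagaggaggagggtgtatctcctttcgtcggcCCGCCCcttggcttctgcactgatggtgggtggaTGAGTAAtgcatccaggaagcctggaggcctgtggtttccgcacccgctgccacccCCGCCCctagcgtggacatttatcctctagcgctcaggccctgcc
TIMP3: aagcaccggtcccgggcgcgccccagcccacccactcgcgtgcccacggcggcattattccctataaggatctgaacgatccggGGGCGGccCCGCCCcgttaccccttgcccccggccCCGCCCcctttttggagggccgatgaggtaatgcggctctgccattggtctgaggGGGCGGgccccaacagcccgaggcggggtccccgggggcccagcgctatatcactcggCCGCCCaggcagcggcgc
MMP14 has 1 GC box, 66 to 61 bases before the start. TIMP1 has 2 GC boxes and, 101 to 95 bases before the start, TGAGTAA. TIMP3 has 5 GC boxes between 166 and 13 bases before the start, and its 300-base window, which includes 50 bases after the start, is 72.7% G and C, against 65.0% for TIMP1, 55.0% for MMP14 and a median of 58.3% over 27305 promoters. No window held the AP-1 site TGANTCA or the glucocorticoid receptor site GNACANNNTGTNC on either strand, or TATAAA on the strand of the gene. Over all 27305 windows the share with a match was 44.6% for GGGCGG, 2.62% for TGAGTAA, 7.76% for TGANTCA, 0.388% for GNACANNNTGTNC and 7.71% for TATAAA. These matches describe the letters only.

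After 6 h of Dex, MMP14, ADAMTS1 and TIMP3 were lower in both genotypes. Of the called members ADAMTS1 fell most, 2.58-fold in WT-GR and 2.22-fold in S134A-GR cells, while MMP14 fell 1.35-fold and 1.59-fold and TIMP3 1.57-fold and 1.29-fold. MMP1 fell past the threshold in S134A-GR cells (1.49-fold), and TIMP1 rose slightly in WT-GR cells (1.12-fold). A gene was called when its adjusted p, from limma on log2(value + 1) with Benjamini-Hochberg adjustment over all tested genes, was below 0.05. By that rule 1 of the 10 members was higher and 3 were lower in WT-GR cells, where 27.9% of all tested genes were called, 13.9% higher and 14% lower. In S134A-GR cells 4 were lower and none higher, where 15.7% were called, 7.99% higher and 7.76% lower. No other tool or setting called a member higher in S134A-GR cells. The median log2 change of the members was -0.40 and -0.47, and that of all tested genes -0.02 in both genotypes.

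MMP14 had values of 99633, 102390.5 and 99891 in the WT-GR vehicle libraries and of 80293, 72261 and 70913 after Dex. In S134A-GR cells they were 147879.7, 151840.3 and 145176 in vehicle and 87395, 95933 and 96128 after Dex. Every Dex library was below every vehicle library of its genotype, and the S134A-GR Dex libraries were all below the WT-GR vehicle libraries. The log2 change was -0.44 (SE 0.05, limma adjusted p = 3.57e-05) in WT-GR and -0.67 (SE 0.05, adjusted p = 4.73e-07) in S134A-GR cells. These are falls of 25.98% and 37.2%.

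ADAMTS1, a secreted proteinase that cleaves proteoglycans such as versican and aggrecan, had values of 1955, 1776 and 1808 in WT-GR vehicle and 777, 627 and 744 in WT-GR Dex. In S134A-GR cells the values were 1358, 1290.5 and 1438 in vehicle and 591, 642 and 607 after Dex. The treated and untreated libraries were far apart in both genotypes, and the Dex libraries of the genotypes overlapped. The log2 change was -1.37 (SE 0.09, limma adjusted p = 5.24e-08) in WT-GR and -1.15 (SE 0.09, adjusted p = 3.31e-07) in S134A-GR cells.

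The collagenase gene MMP1 had values of 601, 654 and 652 in WT-GR vehicle and 451, 571 and 461 in WT-GR Dex. In S134A-GR cells they were 201, 220.0 and 164 in vehicle and 144, 112 and 138 after Dex. The Dex libraries were below the vehicle libraries in both genotypes without overlap. The log2 change of -0.57 (SE 0.14) in S134A-GR cells was called (limma adjusted p = 0.0144), and that of -0.37 (SE 0.14) in WT-GR cells was not (adjusted p = 0.0694). The S134A-GR call was lost without vehicle replicate 1 (0.0584) or 2 (0.0740), without Dex replicate 2 (0.0719) and with only the compared groups fitted (0.0511), and MMP1 was called in WT-GR cells by DESeq2 (adjusted p = 0.0305) and without WT-GR Dex replicate 2 (0.0353).

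The other proteinases of the set were not called for Dex. MMP2 had values of 40.7, 49.7 and 43.2 in WT-GR vehicle and 30.7, 18.0 and 40.7 after Dex. Its S134A-GR values were 77.3, 86.2 and 95.3 with vehicle and 54.9, 49.0 and 37.7 with Dex. The groups did not overlap in either genotype. In WT-GR cells, however, the lowest vehicle value (40.73) and the highest Dex value (40.68) were closer than the value of 1 read. In those 2 libraries 1 read is worth 1.63 and 1.02. The log2 differences were -0.63 and -0.87, and the limma adjusted p was 0.117 and 0.0574. In WT-GR cells the MMP2 difference ranged from -0.89 to -0.32 when single libraries were left out, and it was called without WT-GR Dex replicate 3 (limma adjusted p = 0.0235) and with library weights (0.00402). In S134A-GR cells 9 of 22 alternatives called MMP2, among them edgeR with TMM scaling (adjusted p = 0.0464), DESeq2 (0.0179) and leaving out WT-GR Dex replicates 2 and 3 (0.00965). MMP9 was at 117, 128 and 136 in WT-GR vehicle and 116, 147 and 119 after Dex. Its log2 difference was 0.00 (95% confidence interval -0.48 to 0.47) in WT-GR cells and 0.27 (-0.20 to 0.75) in S134A-GR cells. MMP3 differed by -0.26 in WT-GR cells (-0.68 to 0.15) and by -0.03 in S134A-GR cells (-0.44 to 0.38). MMP13 rested on few reads. The WT-GR vehicle libraries held 52 in all (values 35.8, 19.0 and 12.6) and the WT-GR Dex libraries 18 (10.2, 5.99 and 6.10). Its read count was even in every library, so these reads may not all be independent, and the cause was not tested. Its log2 difference of -1.39 in WT-GR cells had an adjusted p of 0.152 in limma (0.0444 with a pseudocount of 10). In S134A-GR cells the MMP13 difference was -1.11 (limma adjusted p = 0.365, and 0.0220 with library weights).

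Among the inhibitors, TIMP3 had values of 23349, 22160.4 and 21708 in WT-GR vehicle and 14585, 13834 and 14443 after Dex. In S134A-GR cells they were 7272, 7271 and 7603 in vehicle and 5745, 5632 and 5783 after Dex. The 4 groups were completely separated. The log2 change was -0.65 (SE 0.04, limma adjusted p = 6.35e-08) in WT-GR and -0.37 (SE 0.04, adjusted p = 2.05e-05) in S134A-GR cells.

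TIMP1, the inhibitor best known as secreted and inducible, was at 20569, 21165 and 22395 in WT-GR vehicle and 25587, 23768 and 22314 in WT-GR Dex. The lowest Dex library was below the highest vehicle library, and the log2 change was 0.16 (SE 0.05, limma adjusted p = 0.0437). This call was lost under 13 of 22 alternatives, among them no filter on low values (0.0554), scaling by library size only (0.186) and leaving out any one of 9 libraries (up to 0.155, without WT-GR Dex replicate 1). In S134A-GR cells TIMP1 was at 28229, 27483 and 26422 in vehicle and 25329, 26663 and 27481 after Dex, a log2 difference of -0.05 (adjusted p = 0.679). TIMP2 went from 52856 ± 1364 to 49842 ± 1581 in WT-GR cells and from 57862 ± 382 to 54555 ± 1674 in S134A-GR cells (SD, n = 3), with log2 differences of -0.08 and -0.09 that were not called (limma adjusted p = 0.124 and 0.188). Scaling by library size only (0.00559 and 0.0428) and library weights (0.0249 and 0.04996) did call TIMP2.

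Counted over libraries, the Dex and vehicle groups did not overlap for 7 members in WT-GR cells, where this held for 35.1% of all tested genes, and for 6 in S134A-GR cells, where it held for 38.6%. In each of these cases Dex was the lower group. The 7 include MMP13, which passed the filter on low values mainly through the WT-GR vehicle libraries (35.8, 19.0 and 12.6). Its highest value outside that group was 10.2, in a WT-GR Dex library. The filter thus selected MMP13 largely on its WT-GR vehicle values, and its place among the 7 carries little weight. Seen in the plot of all 12 libraries, MMP3 and MMP9 overlapped in both genotypes.

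**Figure D1:**
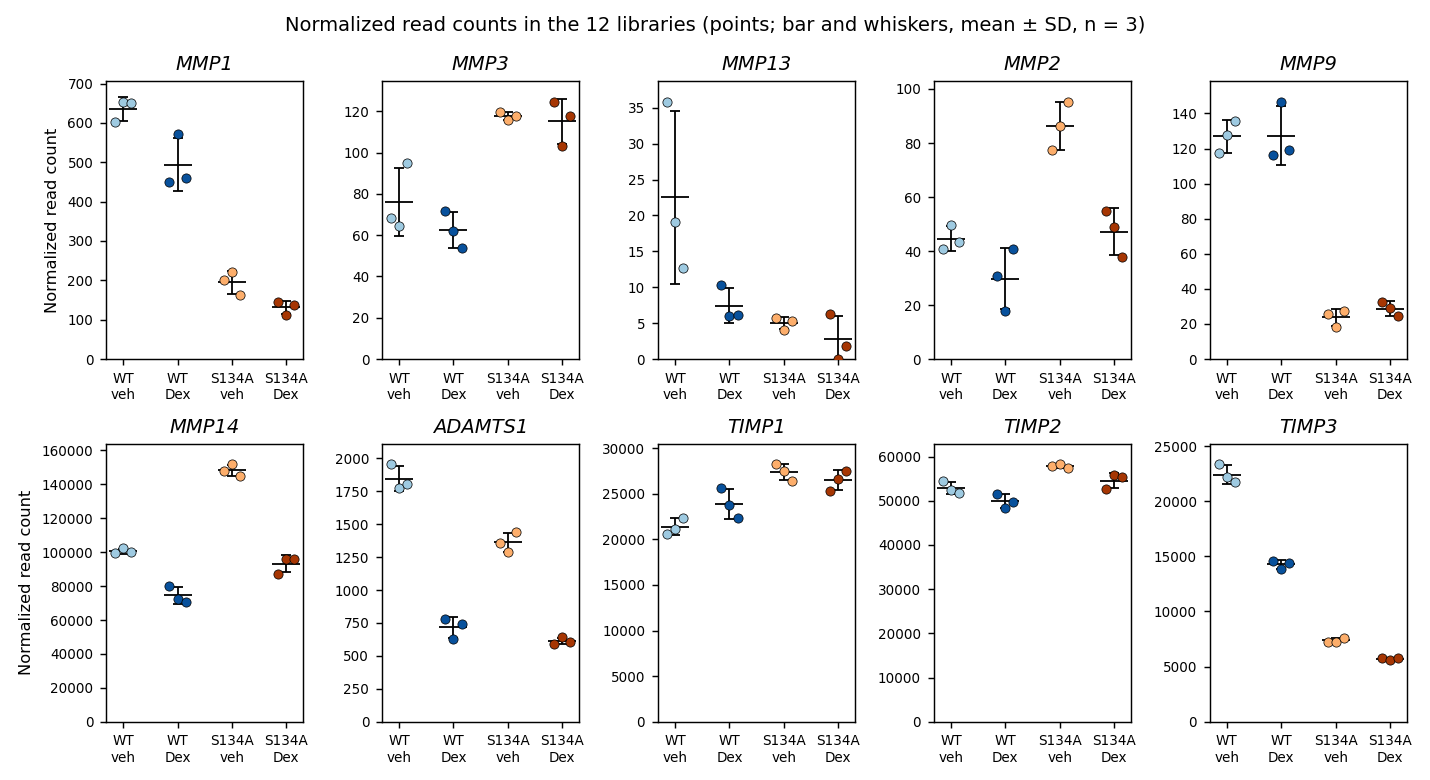
Normalized read counts of the 10 members (y axis, linear and starting at 0, own scale per gene) in the 4 groups (x axis; WT, WT-GR; S134A, S134A-GR; veh, vehicle). Points are libraries in replicate order, and bar and whiskers are mean ± SD, n = 3. ADAMTS1 drops from 1846 to 716 in WT-GR and from 1362 to 613 in S134A-GR cells, while MMP9, MMP1 and TIMP3 are separated mainly by genotype.

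The largest differences in the set were between the genotypes. In vehicle, S134A-GR cells had less MMP9 (5.34-fold), MMP13 (4.48-fold), MMP1 (3.26-fold), TIMP3 (3.04-fold) and ADAMTS1 (1.36-fold) mRNA. MMP2 was 1.94-fold, MMP3 1.55-fold, MMP14 1.47-fold, TIMP1 1.28-fold and TIMP2 1.09-fold higher. All 10 members were called, 5 in each direction, where 50.5% of all tested genes were called (23.8% higher and 26.7% lower). The genotypes did not overlap for any member, against 64.3% of all tested genes. MMP13 passed the filter on low values only through WT-GR libraries and so had to differ, which leaves 9 members for these counts, 5 higher and 4 lower. Under Dex 4 members were higher and 3 lower (of all tested genes 49.7% were called, 23.4% higher and 26.3% lower), and for 6 the genotypes did not overlap (52.4%). All 7 had the same direction in vehicle. Against such a background the counts under Dex say little about the members as a set.

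MMP9, the inducible gelatinase, was at 127 ± 9.29 in WT-GR vehicle and 23.8 ± 4.91 in S134A-GR vehicle (SD, n = 3), with S134A-GR libraries at 25.4, 18.2 and 27.6. The log2 difference was -2.39 (SE 0.22, limma adjusted p = 1.4e-06). Under Dex the S134A-GR values were 32.8, 28.9 and 24.5, and the difference was -2.11 (adjusted p = 4.36e-06). The highest S134A-GR library, at 32.8, was far below the lowest WT-GR library, at 116. MMP9 is also a neutrophil and macrophage gene, and the summed level of the 5 measured markers of those cells was 28901 to 29225 in vehicle-treated WT-GR cells and 41439 to 43819 in vehicle-treated S134A-GR cells. That sum was nearly all CD68, while the leukocyte gene PTPRC was between 0 and 18.3 and ITGAM between 0 and 9.98 over all libraries. CD14 ran the same way as MMP9, with means of 30.4 and 34.0 in WT-GR vehicle and Dex against 4.62 and 4.41 in the S134A-GR groups. In vehicle the mean of CSF1R was 952 for WT-GR and 884 for S134A-GR cells. In Dex it was 762 for WT-GR and 440 for S134A-GR cells, lower in S134A-GR cells as MMP9 was. The part of these genes in the MMP9 difference was not tested.

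MMP1 and MMP3, neighbours on chromosome 11, differed in opposite directions. MMP1 was lower in S134A-GR cells by 1.71 on the log2 scale in vehicle (SE 0.14, limma adjusted p = 5.54e-07), and in Dex the difference was -1.91 (adjusted p = 2.23e-07). MMP3 was at 68.4, 64.5 and 94.8 in WT-GR and 119.7, 115.6 and 117.6 in S134A-GR vehicle, a log2 difference of 0.65 (SE 0.19, limma adjusted p = 0.0121, and 0.0563 without WT-GR vehicle replicate 2). In Dex its difference was 0.88 (adjusted p = 0.00181). MMP13, the third of these neighbours, had S134A-GR values of 5.66, 4.05 and 5.35 in vehicle and 6.34, 0 and 1.88 in Dex. For the library at 0, the usual limit of 3 reads is a value of 2.63. The call of MMP13 in vehicle (-1.85, limma adjusted p = 0.0384) did not hold with a pseudocount of 0.5 (0.0675) or without any one of 5 of the 6 vehicle libraries (up to 0.147, without WT-GR vehicle replicate 1). Of the other measured genes of the cluster, MMP10 had group means of 12.7 to 18.2, and MMP7, MMP8 and MMP20 did not exceed a group mean of 4.60.

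MMP14 averaged 100638 ± 1523 in the WT-GR vehicle group and 148299 ± 3352 in the S134A-GR vehicle group (SD, n = 3), a log2 difference of 0.56 (SE 0.05, limma adjusted p = 1.55e-06). Under Dex the difference was 0.32 (SE 0.05, adjusted p = 0.000191). MMP2, whose proenzyme MMP14 activates, was also higher in S134A-GR vehicle (86.3 ± 9.02 against 44.5 ± 4.62, SD, n = 3; log2 difference 0.94, limma adjusted p = 0.0145), though leaving out S134A-GR vehicle replicate 3 gave an adjusted p of 0.0550. Under Dex the MMP2 difference of 0.70 was not called (limma adjusted p = 0.0559). It ranged from 0.39 to 0.96 when single libraries were left out, and was called without WT-GR Dex replicate 3 (0.0115), without S134A-GR Dex replicate 3 (0.0480), with library size only (0.0380) and with library weights (0.0139). ADAMTS1 was lower in S134A-GR vehicle by 0.44 on the log2 scale (SE 0.09, limma adjusted p = 0.000845), and its difference of -0.22 in Dex had an adjusted p of 0.0504. That difference was called by DESeq2 (adjusted p = 0.0394), without WT-GR Dex replicate 2 (-0.31, limma adjusted p = 0.00616) and without WT-GR Dex replicates 2 and 3 (-0.34, 0.0113).

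The inhibitors did not share a direction between the genotypes. In vehicle TIMP3 averaged 22406 ± 848 in WT-GR cells and 7382 ± 191 in S134A-GR cells, and in Dex 14287 ± 399 and 5720.1 ± 78.3 (SD, n = 3). The log2 differences were -1.60 (SE 0.04, limma adjusted p = 1.87e-11) and -1.32 (SE 0.04, adjusted p = 9.8e-11), and every S134A-GR library was below every WT-GR library. TIMP1 was higher in S134A-GR cells by 0.36 in vehicle (SE 0.05, limma adjusted p = 0.000108) and by 0.15 in Dex (adjusted p = 0.0340), and TIMP2 by 0.13 in both (adjusted p = 0.0131 and 0.0138). Both Dex calls were lost without WT-GR Dex replicates 2 and 3 (TIMP1 0.553, TIMP2 0.197) and when only the compared groups were fitted (0.0812 and 0.0597). The TIMP1 call was lost under 7 alternatives in all, 4 of them leaving out 1 library (up to 0.126, without S134A-GR Dex replicate 3), and the TIMP2 call under 5, 3 of them leaving out 1 library (up to 0.0615, without S134A-GR Dex replicate 2).

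**Figure D2:**
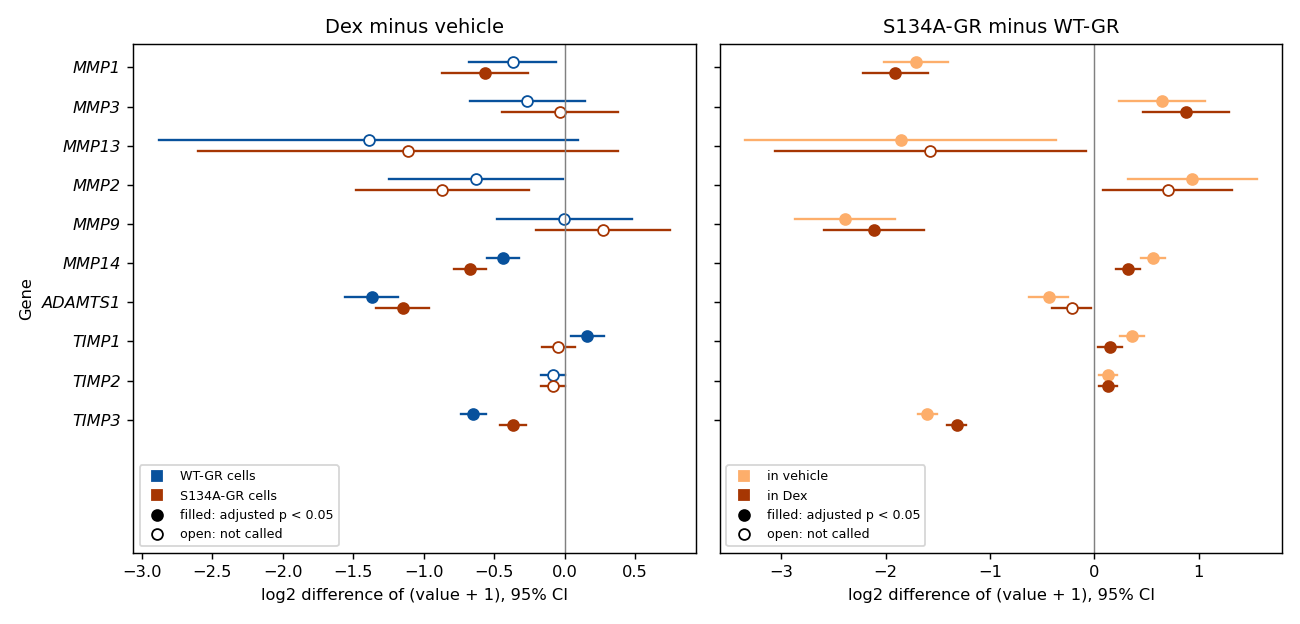
Log2 differences of (value + 1) with 95% confidence intervals (x axis) for each member (y axis), Dex minus vehicle in each genotype (left) and S134A-GR minus WT-GR in each treatment (right). Filled points passed a limma adjusted p of 0.05. Dex differences of the called genes run from -1.37 to 0.16, and genotype differences in vehicle from -2.39 for MMP9 to 0.94 for MMP2.

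Whether Dex acted differently in the genotypes was tested directly, as the S134A-GR change minus the WT-GR change. None of the 10 members was called in limma, where 0.414% of all tested genes were called. Among the 10, TIMP3, MMP14 and TIMP1 had the smallest unadjusted p-values in limma. edgeR with TMM scaling called none, and edgeR with library size only and DESeq2 called 1 each, in both cases TIMP3.

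TIMP3 had the largest such difference relative to its error, 0.28 on the log2 scale (SE 0.06, 95% confidence interval 0.15 to 0.41, unadjusted p = 0.000354, limma adjusted p = 0.0625), its fall being smaller in S134A-GR cells. It was past the threshold with DESeq2 (0.00098), with library size only (0.0311), with library weights (0.00334), and when WT-GR Dex replicate 3 (0.0250) or both replicates 2 and 3 of that group (0.0331) were left out. MMP14 differed the other way, by -0.24 (interval -0.40 to -0.08, adjusted p = 0.175), its fall being larger in S134A-GR cells. TIMP1 differed by -0.21 (interval -0.37 to -0.04, adjusted p = 0.219). Without WT-GR Dex replicate 3, MMP14 and TIMP1 passed as well (adjusted p = 0.0416 and 0.0432).

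For the remaining members the intervals of the difference bound what could have been missed. That of TIMP2 was -0.12 to 0.12, that of ADAMTS1 -0.04 to 0.48 and that of MMP1 -0.63 to 0.24. MMP9 (-0.40 to 0.95), MMP3 (-0.35 to 0.81), MMP2 (-1.11 to 0.64) and MMP13 (-1.82 to 2.38) were less well bounded. So the call of MMP1 in S134A-GR cells alone does not show a difference between genotypes: that difference was -0.20 (limma adjusted p = 0.632).

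Levels can be compared between genes only per length, so group means were divided by kilobases of exon (GENCODE v29). On that scale MMP14 was the highest member in all 4 groups, at 26966 per kb in WT-GR vehicle, 19959.6 in WT-GR Dex, 39737 in S134A-GR vehicle and 24960.4 in S134A-GR Dex, above 99.3, 98.7, 99.6 and 99.2% of 18196 genes with a length. TIMP1 (14651 per kb) and TIMP2 (12971 per kb) followed in WT-GR vehicle, and TIMP3 (4868 per kb) came next. ADAMTS1 (356 per kb) and MMP1 (323 per kb) stood close together but did not overlap between libraries. MMP9 (54.4), MMP3 (37.6), MMP2 (9.40) and MMP13 (7.94) were lower, and of these neighbours MMP2 (8.60 to 10.48) and MMP13 (4.46 to 12.6) overlapped. In S134A-GR vehicle, MMP3 (58.3 per kb) stood above MMP2 (18.2) and MMP9 (10.2).

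MMP14 thus made up most of the transcripts of its family. Its share of the summed per-kb level of the 20 measured MMP genes was 95.7% in WT-GR vehicle, 92.9% in WT-GR Dex, 96.5% in S134A-GR vehicle and 92.1% in S134A-GR Dex. The share of MMP15, another membrane-type proteinase, was 0.735, 2.07, 1.10 and 3.86%. The ratio of MMP14 to MMP15 was 131 ± 9.04 in WT-GR vehicle, 45.2 ± 4.25 in WT-GR Dex, 88.1 ± 2.53 in S134A-GR vehicle and 23.8 ± 0.711 in S134A-GR Dex (SD, n = 3), with no overlap among the groups. The ratio of MMP14 to TIMP2, its partner in proMMP2 activation, was 2.08 ± 0.0696, 1.63 ± 0.0716, 2.80 ± 0.0449 and 1.86 ± 0.0448 in the same order. Both ratios were lower after Dex in each genotype. Of the summed per-kb level of 4 TIMP genes, TIMP3 made up 14.6, 9.56, 4.58 and 3.73% and TIMP1 44.0, 50.3, 53.5 and 54.5%.

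**Figure D3:**
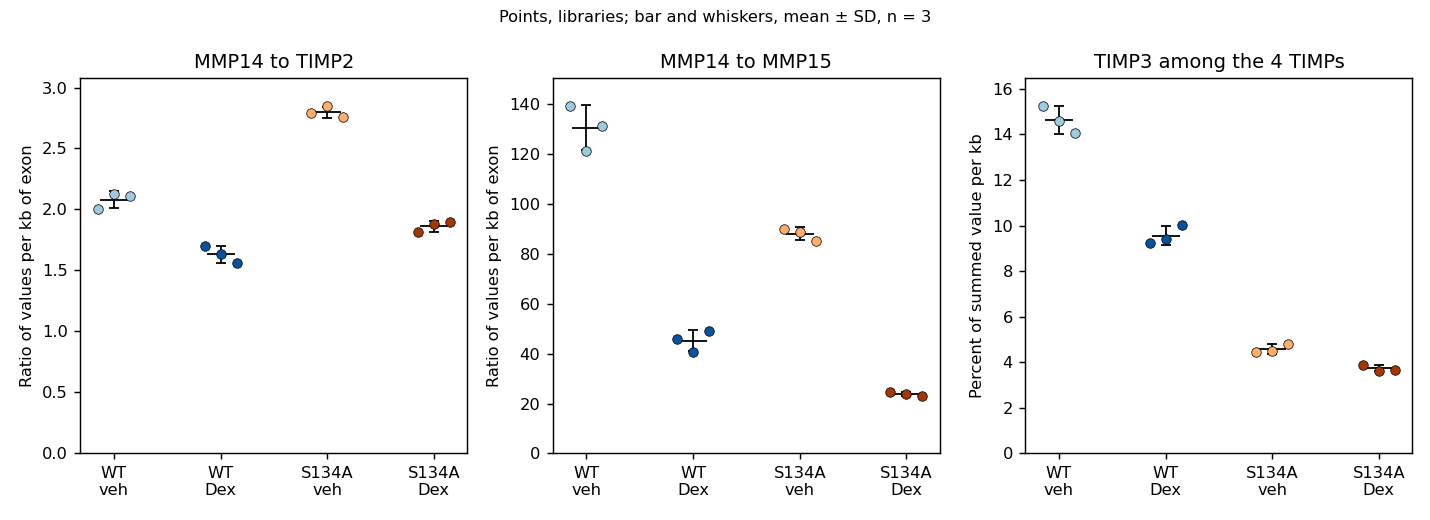
Ratios of the per-kb levels of MMP14 to TIMP2 (left) and MMP14 to MMP15 (middle), and the percent of the summed per-kb level of 4 TIMP genes that is TIMP3 (right), y axes linear and starting at 0, in the 4 groups (x axis). Points are libraries, and bar and whiskers are mean ± SD, n = 3. MMP14 to MMP15 drops from 131 to 45.2 in WT-GR and from 88.1 to 23.8 in S134A-GR cells, and TIMP3 is 14.6% of the TIMP sum in WT-GR vehicle but 4.58% in S134A-GR vehicle.

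The genes whose pattern over the 12 libraries was most like that of a member were found by the root mean square difference of their log2 values after centring. This was done for ADAMTS1 and for the proteinase and the inhibitor with the widest range of group means. For ADAMTS1 (range 1.59 on the log2 scale) FGF5, a fibroblast growth factor gene (0.0960), and ADAM19, a membrane-anchored metalloproteinase gene (0.0996), were the closest. ADAM19, for example, went from 11941 to 5417 in WT-GR and from 10027 to 4535 in S134A-GR cells. For TIMP3 (range 1.97) they were TM4SF18 (0.123), the Wnt co-receptor gene LRP5 (0.129) and GOLGA7B (0.135). For MMP13 (range 2.96, at few reads) they were LOC101927476 (0.507), SETBP1 (0.509) and FRMPD3 (0.565), which match it much less closely.

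The wider family was described with lists of related genes. Of the other matrix metalloproteinases, 14 of 17 had a value and 8 were tested, and with Dex 3 of these rose and 1 fell in WT-GR cells, and in S134A-GR cells 2 rose and 1 fell (background for either direction as above, 27.9 and 15.7%; median log2 change of the 8, -0.29 and -0.01). MMP15 rose from 881 ± 74.7 to 1888 ± 213 in WT-GR and from 1917 ± 42.4 to 4456 ± 350 in S134A-GR cells (SD, n = 3; log2 changes 1.10 and 1.21, limma adjusted p = 7.61e-07 and 2.53e-07). MMP16, also membrane-type, fell by 0.73 and by 0.59 on the log2 scale (adjusted p = 0.000142 and 0.000841 in limma), and MMP19 rose by 0.72 and 0.59 (0.000889 and 0.00437). The membrane-type genes MMP14, MMP15 and MMP16 therefore did not move in 1 direction. MMP24 rose in WT-GR cells (0.65, limma adjusted p = 0.0119), with 0.09 in S134A-GR cells (0.833), and the difference of these changes was not called (0.259). Between genotypes in vehicle, 5 of the 8 were higher in S134A-GR cells and none lower, where 23.8% of all tested genes were higher and 26.7% lower.

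Relatives of ADAMTS1 changed in both directions. Of 12 tested ADAMTS genes other than ADAMTS1, 3 rose and 5 fell in WT-GR cells (all tested genes, 13.9 and 14%) and 2 rose and 4 fell in S134A-GR cells (7.99 and 7.76%), with median log2 changes of -0.50 and -0.31. ADAMTS6, ADAMTS15, ADAMTS16 and ADAMTS17 fell in both genotypes, as ADAMTS1 did. ADAMTS9, a versican-cleaving proteinase gene, rose from 647 ± 45.3 to 1978 ± 234 and from 649 ± 17.4 to 2185 ± 68.7 (SD, n = 3; log2 changes 1.61 and 1.75, limma adjusted p = 1.06e-08 and 4.24e-09). ADAMTS7 rose by 1.07 and 1.14 (limma adjusted p = 1.47e-05 and 7.77e-06). ADAMTS14 (1.33, adjusted p = 0.000125) and ADAMTS18 (-1.09, 0.00593) were called in limma in WT-GR cells and had changes of 0.49 (0.0957) and -0.63 (0.119) in S134A-GR cells. Of 5 tested ADAMTS1 substrates only THBS1, the thrombospondin gene, was called in either genotype. It rose from 34339.7 to 83341 in WT-GR and from 30802 to 74435 in S134A-GR cells, by 1.28 and 1.27 on the log2 scale (limma adjusted p = 1.94e-08 and 1.96e-08).

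Of 6 tested inhibitors outside the TIMP1, TIMP2 and TIMP3 set, including TIMP4 and RECK, 1 fell in each genotype and none rose (27.9 and 15.7% of all tested genes were called; median log2 changes 0.01 and 0.08). That gene was SPOCK1, a testican, at -0.59 and -0.40 on the log2 scale (limma adjusted p = 4.36e-05 and 0.00142). Of 8 tested ADAM sheddases, targets of TIMP3 among them, 2 rose and 3 fell in WT-GR cells and 1 rose and 2 fell in S134A-GR cells, against the same shares of all tested genes (medians -0.23 and 0.02). ADAM19 fell by 1.14 in both (limma adjusted p = 4.4e-09 and 4.24e-09) and ADAM8 fell by 0.42 and by 0.69 (0.00139 and 2.17e-05). ADAM12 fell by 0.80 in WT-GR cells (limma adjusted p = 0.00589; S134A-GR -0.50, 0.0895) and ADAM15 rose by 0.31 there (0.00181; S134A-GR 0.12, 0.218).

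**Figure D4:**
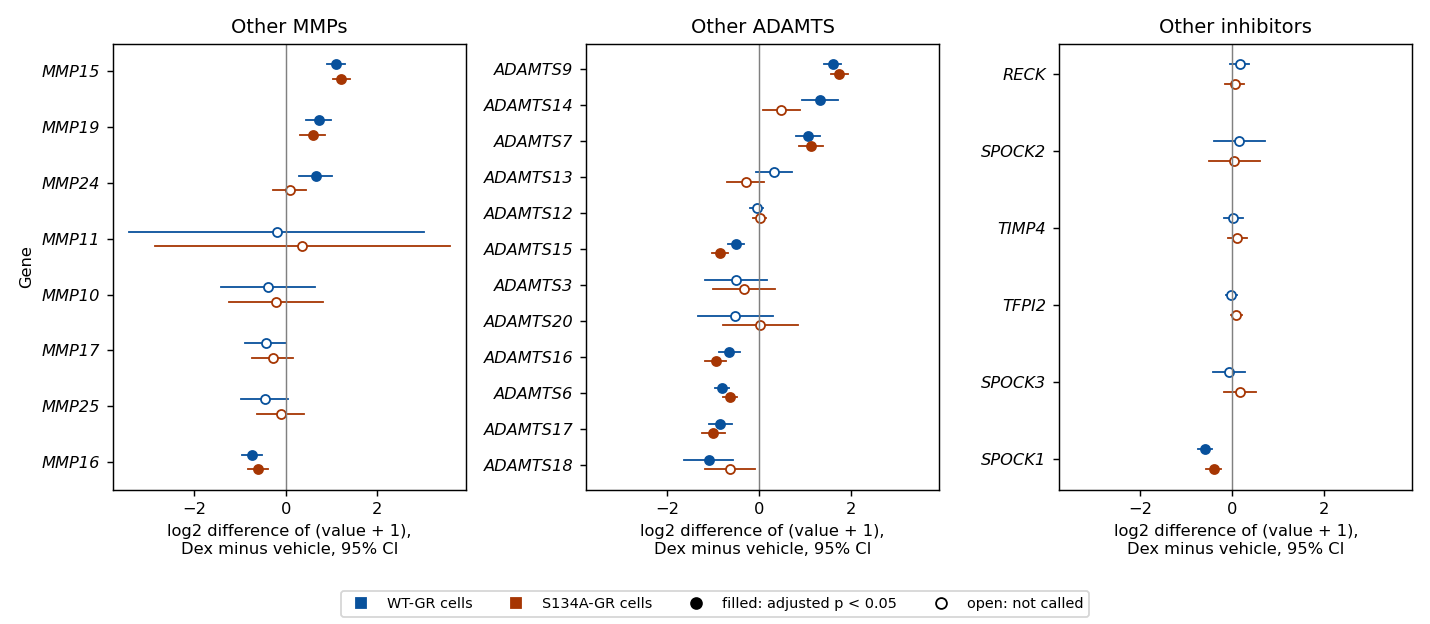
Log2 Dex differences of (value + 1) with 95% confidence intervals (x axis) for the tested genes (y axis) of the other matrix metalloproteinases, other ADAMTS proteinases and other inhibitors, in WT-GR (blue) and S134A-GR (red) cells. Filled points passed a limma adjusted p of 0.05. MMP15 (1.10 and 1.21) and ADAMTS9 (1.61 and 1.75) lie to the right of 0 in both genotypes, and MMP16 (-0.73 and -0.59) to the left.

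Of 11 tested activators and inducers of proMMPs, 3 rose and 1 fell in WT-GR cells and 1 rose and 2 fell in S134A-GR cells, where 27.9 and 15.7% of all tested genes were called (median log2 changes 0.20 and -0.03). PLAU, the urokinase gene whose product generates plasmin, had log2 changes of -1.92 and -2.17 (limma adjusted p = 1.12e-12 and 2.12e-13), whereas PLAT, the tissue plasminogen activator gene, rose by 0.41 and 0.40 (4.43e-05 and 5.38e-05). CTSB, a lysosomal cathepsin gene, rose by 0.20 in WT-GR cells (limma adjusted p = 0.00243), with 0.03 in S134A-GR cells (0.687). ST14, the matriptase gene, fell by 0.65 in S134A-GR cells (limma adjusted p = 0.00183), with -0.24 in WT-GR cells (0.151). A list of 12 factors that act at MMP promoters held AP-1 and ETS factors and RUNX2, which is of neither family. Of these, 1 rose and 3 fell in WT-GR cells and 3 rose and 3 fell in S134A-GR cells. The shares of all tested genes were the same as above, and the medians were 0.11 and -0.04. JUN fell by 1.20 and by 1.51 on the log2 scale (limma adjusted p = 2.47e-08 and 2.46e-09), FOSL1 fell by 0.55 and by 0.68 (0.000113 and 1.51e-05), and FOSL2 fell by 0.42 and by 0.50 (0.000187 and 3.24e-05). JUNB rose in WT-GR cells by 0.44 (limma adjusted p = 0.00866), with 0.14 in S134A-GR cells (0.514). No gene of these 7 lists was called for a difference between the responses.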

How the data were processed

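The submitters' processing notes name hg38, DESeq2 1.22.2, Subread's featureCounts and FastQC 0.11.7, without roles; an aligner and an annotation are not stated there. The authors deposited 1 normalized signal value per gene and library, the reads divided by that library's size factor: 100% of values were whole multiples of 1 read (tolerance 0.01 reads). Even counts made up 58.2 to 67.5% of counts from 1 to 20, the cause of which was not tested. Dex files carry shifted gene names (8 lines agree), so Dex values took the vehicle names by line: over genes, r with the vehicle mean was 0.982 to 0.986 by line and -0.0059 to -0.0040 by name.

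limma 3.58.1 (trend, log2(value + 1), R 4.3.3) was fitted to all 12 libraries, for genes reaching 10 in 3 or more of them. edgeR 4.0.16 and DESeq2 1.42.0 on recovered reads, scaling, pseudocounts, filters, library weights, a replicate block and left-out libraries were alternatives. Depth is given above, and 3 libraries per group limit the precision. Scripts were tested on simulated data. Fold changes are ratios of group means, and log2 differences understate changes of low genes. Members and lists were chosen with earlier results of these data known. All members are named. Of each other list at most 4 genes called for Dex, by size of change, are given with test results. Some further genes are only named or given by level. One gene among those most like a member is not reported here.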

Additional observations from a re-analysis of the deposited data

How the results depend on the processing

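Over 22 alternatives (21 for the difference of responses), 24 of 50 member results kept direction and call in all; of 1090 values 990 did, 40 newly passed the threshold, 37 no longer did and 23 changed sign. MMP14, ADAMTS1 and TIMP3 kept their Dex calls in all of them. Members called were 3 to 5 for Dex in each genotype, 8 to 10 for genotype in vehicle, 5 to 8 in Dex and 0 to 3 for the difference when single libraries were left out. With library weights 7 members were called for Dex in S134A-GR cells. For the difference, 1 was called with library size only or DESeq2, and 3 with weighted libraries, or with WT-GR Dex replicate 3 or both replicates 2 and 3 left out (the lone library then assumed to vary like the others).

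Over all genes, Dex in WT-GR cells gave 4455 calls, 2490 with only the compared groups, 7113 with library weights and 2963 (without WT-GR vehicle replicate 2) to 6094 when leaving out libraries. Dex in S134A-GR cells gave 2513, and 5116 with library weights. The difference gave 66, against 504 with DESeq2, 2854 with library weights, 2550 on leaving out WT-GR Dex replicates 2 and 3, and 26 to 1604 (without WT-GR Dex replicate 3) when leaving out libraries. The causes were not tested.

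No called value changed sign. MMP9 for Dex in WT-GR cells was 0.0158 with edgeR and TMM, 0.0026 with DESeq2, 0.0920 with library weights and -0.108 to 0.0593 when leaving out libraries. MMP3 for Dex in S134A-GR cells ranged from -0.0922 to 0.0425 (without S134A-GR Dex replicate 2). For the difference, MMP2 was 0.143 with library weights and -0.548 to 0.0195 (without WT-GR Dex replicate 3) when leaving out libraries, MMP3 -0.0062 with library weights, and MMP13 -0.23 with library weights, -0.17 when replicates 2 and 3 of WT-GR Dex were left out, and -0.42 (without S134A-GR Dex replicate 1) to 1.01 when leaving out libraries. TIMP2 for the difference was 0.0379 with library size only, 0.0043 with DESeq2, 0.0303 with library weights and -0.0221 to 0.0251 when leaving out libraries.

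Scaling by library size only shifted the median of all genes by up to 0.10 (S134A-GR against WT-GR in Dex), where 64.9% of calls were higher, against 47.0%. The share was 59.6 against 47.2% in vehicle and 32.4 against 49.7% for Dex in WT-GR cells. Libraries with the same number were not correlated (r -0.0852 to 0.0551 over 18 pairs). With the replicate number as a block the members called were 3, 4, 10, 6 and 0, with TIMP1 lost for Dex in WT-GR cells (adjusted p = 0.0781) and between genotypes in Dex (0.0603); the block gave 25 calls over all genes for the difference. Depth limits MMP13 most.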
